A study of Mus musculus with 12 samples.

Results

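Levels of 10 autophagy genes were followed in mouse blastocysts under inhibition of the p38 mitogen-activated kinases (p38-MAPK). The genes were Gabarapl1, Gabarapl2, Gabarap, Map1lc3a, Map1lc3b, Sqstm1, Ulk1, Atg9a, Atg9b and Wipi1, which are 10 of the 34245 genes in the expression table. They were chosen by name around Gabarapl1, and Gabarapl1 was chosen because its mRNA was lower in inhibited than in control blastocysts 10 h after E3.5. All times are hours after E3.5. That contrast is therefore described for all 10 genes without a test.

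The study asked how transcription in the early blastocyst responds when p38-MAPK is blocked. Embryos came from superovulated F1 hybrid (C57Bl6 x CBA/W) females mated with F1 males, were collected at the 2-cell stage, and were grown in KSOM medium with amino acids to E3.5. Pools of 30 blastocysts were then moved for 4, 7 or 10 h into medium with 20 µM SB220025, a small-molecule p38-MAPK inhibitor (p38-MAPKi, p38i in the plots), or into medium with the same volume of its solvent DMSO (control), so the controls received solvent too. Each of the 6 groups had 2 libraries of poly(A) RNA, 12 in all. Each library held whole blastocysts, with trophectoderm, epiblast and primitive endoderm mixed. The p-values rest on the spread between these pools, for which the labels give a replicate number and no culture day. This spread was pooled in part over genes. At 4 h each gene was given the variance usual for genes of its level, so those p-values do not measure its own spread. The libraries were made without spiked-in RNA, so values are relative to the rest of the library and give no amount per embryo.

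Macroautophagy encloses cytoplasm in a double membrane that closes into an autophagosome and fuses with the lysosome. The ULK1 kinase starts the process, vesicles that carry ATG9 seed the membrane, and WIPI proteins bind the phosphoinositide made there. Ubiquitin-like proteins of the ATG8 family, which comprises the LC3 and GABARAP branches, are then joined to lipid of the growing membrane, where cargo receptors such as SQSTM1 (p62) bind them. In the preimplantation mouse embryo autophagy is known for its role after fertilization, when maternal protein is recycled.

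The values are RPKM, the reads of a gene scaled to the length of its model and to the depth of the library. The 12 libraries had between 11242313 and 24457312 reads. The shallowest was replicate 1 of p38-MAPKi at 7 h, with a read in 14001 genes, against 16343 to 17645 genes in the other libraries. The 10 trophectoderm and 8 epiblast markers examined all had at least 1 RPKM in all 12 libraries, as did 7 of 10 primitive endoderm markers, with Sox7 and Foxa2 below 1 RPKM throughout. Of 8 cumulus and granulosa cell markers, none reached 1 RPKM and 3 (Fshr, Has2 and Ptx3) had no read.

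Upstream sequence is shown for Gabarapl1 and Sqstm1, the members that stood lowest against control at 10 h, and for Atg9b, the member that stood highest. The sequences come from RefSeq on GRCm38.p6, where 9 of the 10 genes had an entry and Map1lc3a had none. Each runs 5′ to 3′ and ends just before the transcribed part. Capitals mark a GC box (GGGCGG on either strand) or a CCAAT box (CCAAT on either strand).
Gabarapl1, chr6:129532942-129533159, plus strand: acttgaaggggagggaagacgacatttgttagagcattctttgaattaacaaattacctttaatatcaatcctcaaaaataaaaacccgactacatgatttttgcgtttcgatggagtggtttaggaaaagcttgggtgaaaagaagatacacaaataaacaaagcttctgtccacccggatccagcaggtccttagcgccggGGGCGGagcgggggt
Sqstm1, chr11:50210828-50211070, minus strand: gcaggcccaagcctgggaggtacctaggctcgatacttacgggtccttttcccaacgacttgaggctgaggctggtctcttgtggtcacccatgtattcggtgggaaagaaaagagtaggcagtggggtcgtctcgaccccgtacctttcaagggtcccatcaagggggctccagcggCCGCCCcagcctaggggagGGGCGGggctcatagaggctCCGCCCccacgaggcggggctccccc
Atg9b, chr5:24392144-24392393, minus strand: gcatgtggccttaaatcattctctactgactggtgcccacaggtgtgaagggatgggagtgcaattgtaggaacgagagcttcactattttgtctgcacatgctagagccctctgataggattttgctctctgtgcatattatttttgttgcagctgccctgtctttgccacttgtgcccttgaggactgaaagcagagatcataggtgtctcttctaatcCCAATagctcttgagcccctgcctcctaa

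The windows searched ran from 250 bases before to 50 bases after each RefSeq start, on both strands. A GC box was found in Gabarapl1 (2), Gabarapl2 (2), Map1lc3b (1), Sqstm1 (3), Ulk1 (5) and Wipi1 (9), and in 35.9% of 27025 RefSeq promoters. One of the Gabarapl1 boxes lies downstream of the printed stretch. A CCAAT box was found in Atg9a (3) and Atg9b (1), and in 37.9% of promoters. The E-box CACGTG (7.24% of promoters), the FoxO motif GTAAACA (3.55%) and the AP-1 motif TGANTCA (7.93%) were found in none of the 9 windows, and the antioxidant response element TGACNNNGC (12.5%) was found in Map1lc3b. The motifs do not overlap in the stretches shown. The GC and CCAAT boxes were added to the search after the sequences had been seen. A match in these letters is a description and says nothing about binding.

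In the 6 control libraries the 10 mRNAs covered a wide range of levels per length. Gabarapl2 (195 ± 32.6 RPKM, SD, n = 6), the cargo receptor Sqstm1 (170 ± 12.8) and Map1lc3a (122 ± 12.3) were highest. Ulk1 (62.5 ± 6.96), Map1lc3b (47.3 ± 3.09), Atg9a (41.1 ± 8.60), Gabarap (39.7 ± 5.36) and Gabarapl1 (24.7 ± 3.28) followed. Atg9b (2.80 ± 0.865) and Wipi1 (1.51 ± 0.319) were far lower. The ranges over libraries overlapped for the neighbours Gabarapl2 and Sqstm1, Map1lc3b and Atg9a, Atg9a and Gabarap, and Atg9b and Wipi1, so their order is not set by these data. The ranges of the other neighbours did not overlap. Gene models that share bases limit some of these levels. Map1lc3b lies whole within Gm20388 on the same strand, Atg9a shares 4287 bases with Gm29253 on the same strand, and Sqstm1 shares 750 bases with Mrnip on the opposite strand. How shared reads were assigned is not given in the sources used here.

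**Figure D1:**
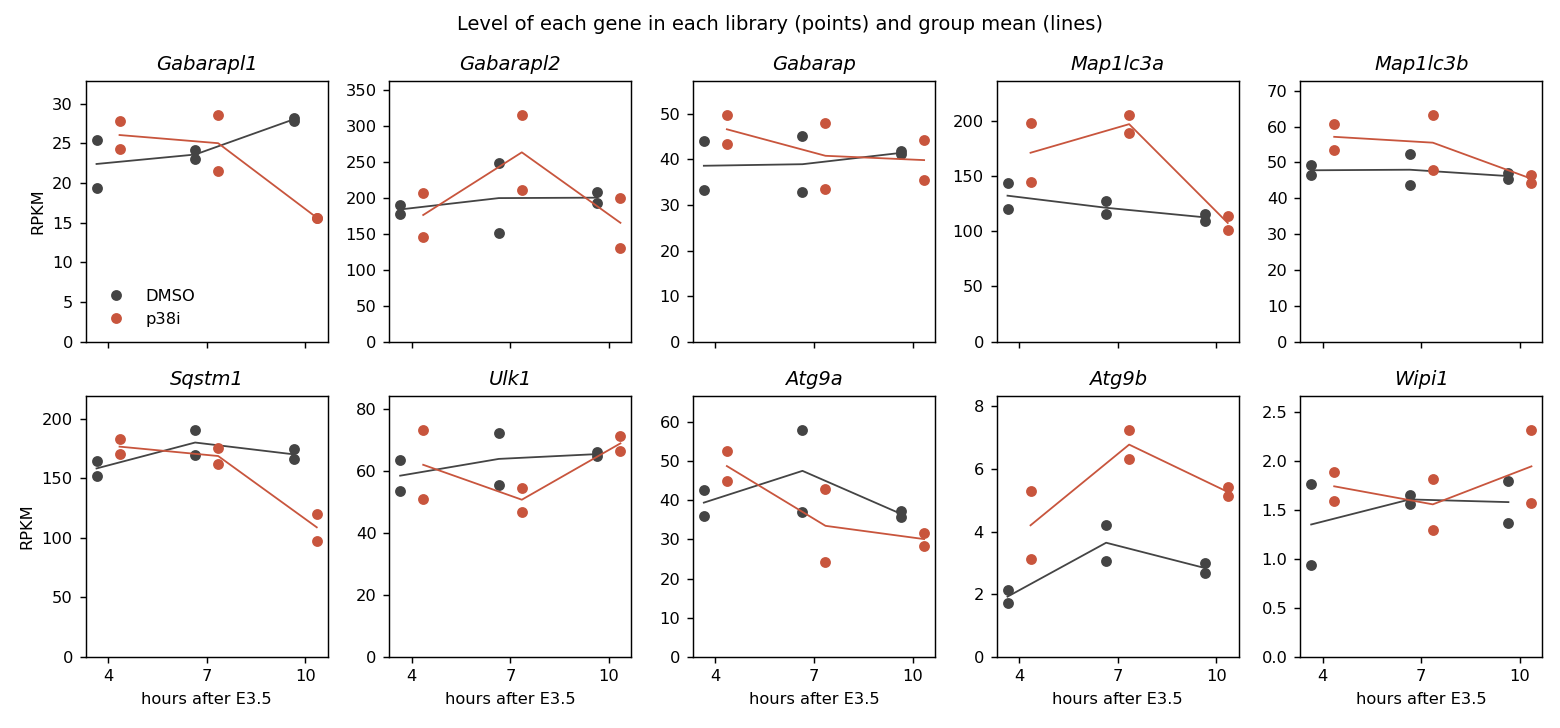
RPKM (linear axes from 0) of each of the 10 genes against hours after E3.5, with 1 point for each library (black DMSO, red p38i) and a line through the group means of 2 libraries. At 10 h the p38i libraries of Gabarapl1 (15.6 and 15.7 RPKM) and Sqstm1 (97.5 and 120) lie below the DMSO libraries, and those of Atg9b (5.12 and 5.41) lie above.

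Gabarapl1 (ENSMUSG00000030161.8, chromosome 6, 129533160 to 129542346, plus strand, GRCm38) encodes a GABARAP-branch ATG8 protein. In control blastocysts it was at 19.4 and 25.4 RPKM at 4 h, 23.0 and 24.2 at 7 h, and 28.3 and 27.8 at 10 h. After p38-MAPKi it was at 27.9 and 24.2, 21.5 and 28.6, and 15.7 and 15.6 RPKM at these time points, on 486 to 1366 reads over all libraries. The groups overlapped at 4 h and 7 h, whereas at 10 h the inhibited libraries were the lowest of all 12 and the controls stood clear above them. The log2 fold change at 10 h was -0.84 (SE 0.07), which is 0.558 of the control level. Before that time point limma found no change at a Benjamini-Hochberg adjusted p under 0.05. Its log2 fold change was 0.23 at 4 h (95% interval -0.18 to 0.63, adjusted p = 0.766) and 0.07 at 7 h (-0.37 to 0.51, adjusted p = 0.834), and with a trend on the length of the gene model removed the value at 7 h was -0.15. In a fit to these 8 libraries together, the effect common to 4 h and 7 h was 0.15 (-0.15 to 0.45, adjusted p = 0.496). In whole blastocysts fewer cells of a type and less RNA per cell cannot be told apart.

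In control blastocysts Gabarapl1 did not pass the limma test between 4 h and 10 h, with a log2 difference of 0.34 (95% interval 0.03 to 0.64, adjusted p = 0.30). Its 10 h control libraries lay above both 4 h control libraries. Those 10 h libraries also entered the choice of the genes, which can favour high values for Gabarapl1 there. The p-values of this comparison are therefore a description only. Without replicate 2 of the 4 h controls the difference was 0.53. The same contrast gave 0.10 (-0.12 to 0.33, adjusted p = 0.625) for Sqstm1, with a value of -0.03 after median centring, and 0.57 (0.07 to 1.06, adjusted p = 0.279) for Atg9b. In this control comparison limma called 0 of the 10 genes, beside 0.471% of all tested genes. An unadjusted p under 0.05 was found for 2 members, beside 15.2% of all genes. Voom on recovered reads also called 0, beside 479 of 10825 genes. The libraries of 6 members did not overlap, 5 higher at 10 h and Map1lc3a lower, beside 50.3% of all genes.

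For the other ATG8 genes control and p38-MAPKi libraries overlapped at 10 h, and the difference between these genes and Gabarapl1 was not tested. Gabarapl2, which encodes GATE-16, was at 208 and 193 RPKM in control and 200 and 131 after p38-MAPKi at that time. Gabarap, the founding gene of its branch, was at 41.1 and 41.8 against 44.3 and 35.4 RPKM. For both genes the groups overlapped, and the log2 fold changes were -0.31 (SE 0.18) and -0.07 (SE 0.11). Leaving out replicate 2 of p38-MAPKi turned the Gabarapl2 value to -0.0026, and leaving out replicate 1 gave -0.61. The LC3 genes Map1lc3a and Map1lc3b, whose products give the standard marker of autophagosomes, had log2 fold changes of -0.07 (SE 0.08) and -0.02 (SE 0.07) at 10 h, and their groups overlapped as well.

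At the earlier time points Gabarapl2, Gabarap and Map1lc3b gave no call either. Gabarapl2 was at 191 and 178 RPKM in control and 146 and 207 after p38-MAPKi at 4 h, and at 249 and 151 against 316 and 212 at 7 h. Its replicates thus differed by as much as the groups, and its log2 fold changes in limma were -0.08 (95% interval -0.48 to 0.32, adjusted p = 0.923) and 0.41 (-0.21 to 1.04, adjusted p = 0.341). Gabarap was at 33.2 and 44.0 against 43.5 and 49.7 RPKM at 4 h, and at 45.1 and 32.7 against 33.6 and 48.0 at 7 h, with limma values of 0.28 (adjusted p = 0.707) and 0.06 (adjusted p = 0.878). Map1lc3b was at 46.4 and 49.2 against 53.6 and 60.7 RPKM at 4 h, where the groups did not overlap, and at 52.4 and 43.6 against 47.8 and 63.2 at 7 h, where they did. Its limma values were 0.25 (-0.14 to 0.65, adjusted p = 0.733) and 0.20 (-0.25 to 0.65, adjusted p = 0.518).

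As a share of the summed RPKM of the 5 ATG8 genes, Gabarapl1 was 6.42% and 6.67% in the 10 h controls and 3.86% and 4.56% after p38-MAPKi. The group means were 6.54% ± 0.173 and 4.21% ± 0.497 (SD, n = 2). The 5 genes summed to 429 ± 16.1 RPKM in these controls and to 374 ± 44.8 RPKM after inhibition. Over all 12 libraries the share of Gabarapl1 ran from 3.54% to 6.71%, so the low shares at 10 h lay inside the range of the other time points. Its lowest share came from replicate 1 of p38-MAPKi at 7 h, where Gabarapl2 was highest at 316 RPKM. Gabarapl2 gave 35.2% to 52.0% of the sum and Map1lc3a 25.0% to 36.9%, and these genes made up most of the family in every library.

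**Figure D2:**
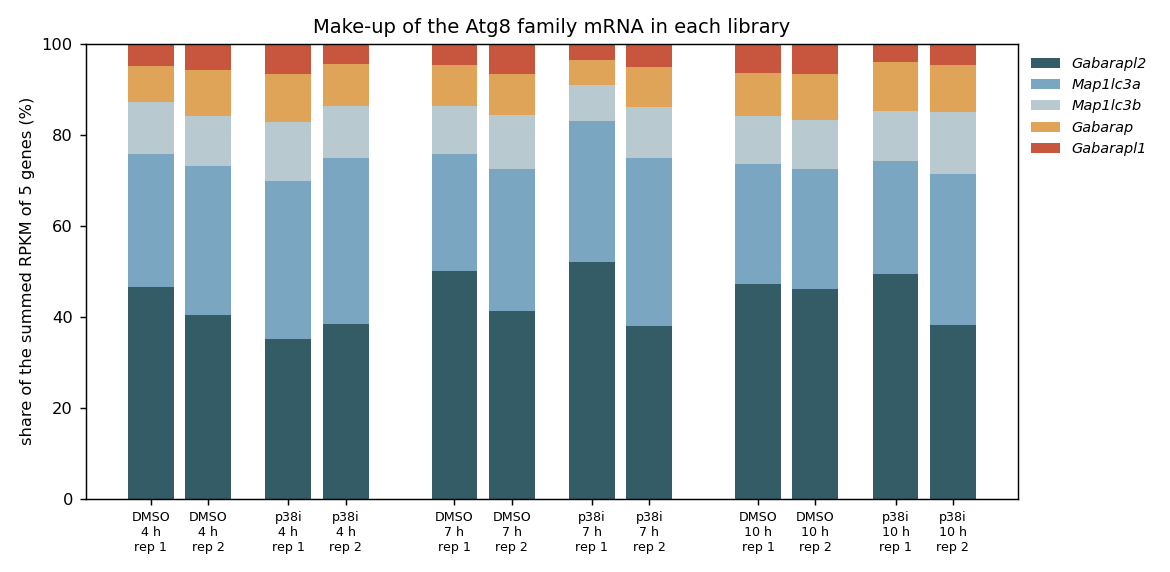
Share (%, from 0 to 100) of the summed RPKM of the 5 ATG8 genes given by each gene, with 1 stacked bar for each of the 12 libraries. The red top segment, Gabarapl1, is 6.42% and 6.67% in the DMSO 10 h bars and 3.86% and 4.56% in the p38i 10 h bars.

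Map1lc3a (chromosome 2, 155276297 to 155278073, plus strand) had, as deposited, the largest log2 fold changes of the ATG8 genes at 4 h and 7 h. At 4 h it was at 120 and 144 RPKM in control and 144 and 198 after p38-MAPKi. At 7 h it was at 127 and 115 against 189 and 205 RPKM, and at 10 h at 116 and 110 against 101 and 114. The inhibited libraries thus stood above control at 4 h, by a margin under 1 RPKM, and clearly so at 7 h, and overlapped with control at 10 h. The log2 fold change at 7 h was 0.70 (SE 0.17, 95% interval 0.31 to 1.09), which missed the threshold of limma (adjusted p = 0.0569). The effect common to 4 h and 7 h was 0.53 (0.23 to 0.83, adjusted p = 0.0543). The limma test of the difference between these time points gave 0.34 (-0.23 to 0.92, adjusted p = 0.684).

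Length moved with the results at 7 h and, less strongly, at 4 h. Over all tested genes the median log2 fold change at 7 h fell in steps with length. It was 0.53 for gene models up to 1000 bases and -0.40 for those over 5000 bases. At 4 h these classes had 0.19 and -0.06, with 0.22 for models of 1000 to 2000 bases. At 10 h the median lay between -0.05 and -0.01 in all 5 length classes. The Map1lc3a model, at 1181 bases, is the shortest of the 10. With the trend on length removed from each library, its log2 fold change was 0.23 at 4 h and 0.31 at 7 h. Map1lc3b, the longest model at 7517 bases, then had 0.38 and 0.45 and stood above Map1lc3a at both times. At 7 h Gabarap had 0.06 as deposited and -0.19 with the trend removed. Atg9b, with a model of 3946 bases, kept 0.93 at that time. Whether length sets any of these values was not tested further. The shallow replicate 1 of p38-MAPKi belongs to the 7 h time point. Without it Map1lc3a had a log2 fold change of 0.76 there and Atg9b 1.01.

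**Figure D3:**
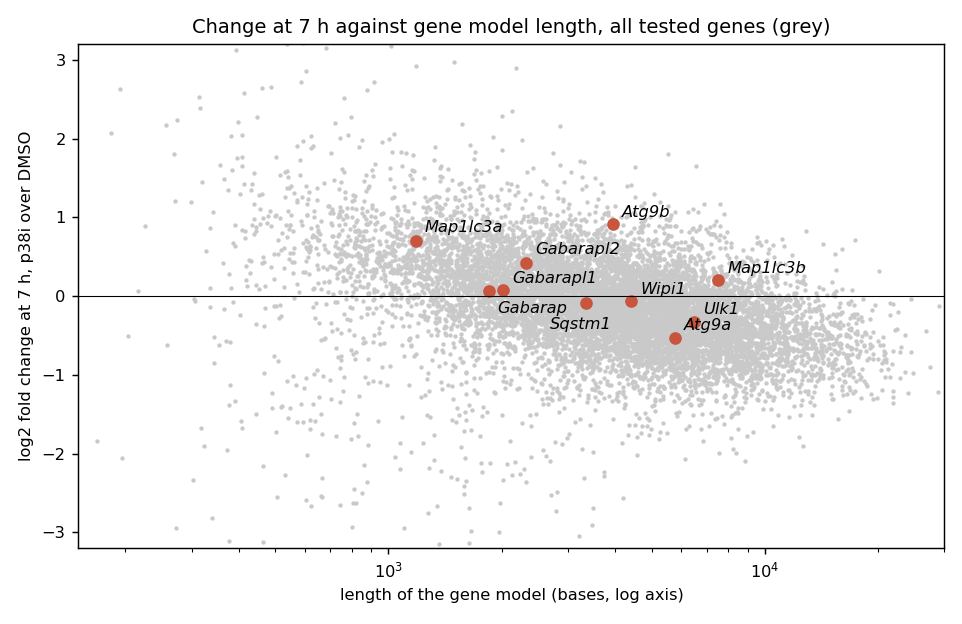
Log2 fold change at 7 h (p38i over DMSO) against the length of the gene model in bases on a log axis, for all tested genes (grey) and the 10 genes (red, named), with 73 tested genes outside the axes. Short models lie higher than long ones, and Map1lc3a (0.70) sits among the short models while Atg9b (0.91) stands above most genes of its length.

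Sqstm1 (ENSMUSG00000015837.15, chromosome 11, 50199366 to 50210827, minus strand) encodes p62, which binds ubiquitin on cargo and ATG8 on the membrane. It was at 152 and 165 RPKM in control and 170 and 183 after p38-MAPKi at 4 h, and at 170 and 191 against 162 and 176 at 7 h. At 10 h it was at 175 and 166 against 97.5 and 120 RPKM. The last of these inhibited libraries were the lowest of the 12, and the groups did not overlap at that time. The log2 fold change at 10 h was -0.65 (SE 0.10), or 0.636 of control, with -0.50 and -0.80 when either inhibited library was left out. At 4 h it was 0.16 (95% interval -0.24 to 0.56, limma adjusted p = 0.844), with -0.01 after quantile normalization. At 7 h it was -0.09 (-0.48 to 0.30, limma adjusted p = 0.747), with 0.10 after median centring.

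Atg9a and Atg9b encode the lipid scramblases of autophagy, Atg9a in most tissues and Atg9b in few. Atg9b (ENSMUSG00000038295.14, chromosome 5, 24384181 to 24392143, minus strand) was at 2.12 and 1.72 RPKM in control and 5.29 and 3.11 after p38-MAPKi at 4 h. It was at 3.07 and 4.21 against 6.31 and 7.24 RPKM at 7 h, and at 2.98 and 2.69 against 5.41 and 5.12 at 10 h. Every inhibited library stood above both controls of its time point, on 124 to 508 reads. The effect common to 4 h and 7 h was a rise of 0.998 on the log2 scale (SE 0.21), which passed in limma (adjusted p = 0.0373). The 10 genes were chosen with earlier results of these data known. Whether values at 4 h and 7 h were among those results is unclear. The single time points missed the threshold, with 1.09 (SE 0.31, adjusted p = 0.0528) at 4 h and 0.91 (SE 0.25, adjusted p = 0.0681) at 7 h. At 10 h the log2 fold change was 0.89 (SE 0.13). The common rise kept its size but lost its call when most single libraries were left out (0.92 to 1.13, adjusted p up to 0.121), and it passed without replicate 1 of p38-MAPKi at 4 h (0.83) or at 7 h (1.06). The call was also lost without the trend in limma (adjusted p = 0.0989), without the filter (0.181) and with the replicate block (0.0538), and was kept by voom (0.0215). Atg9b shares 294 bases with Nos3 on the opposite strand, which reached at most 0.486 RPKM.

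Atg9a (chromosome 1, 75180860 to 75192196, minus strand) differed most between its replicates at 7 h. It was at 36.1 and 42.7 RPKM in control and 52.7 and 44.8 after p38-MAPKi at 4 h, 37.1 and 57.9 against 24.2 and 42.8 at 7 h, and 35.8 and 37.2 against 28.4 and 31.8 at 10 h. The inhibited libraries were above control at 4 h, overlapped with it at 7 h and were below it at 10 h. The log2 fold changes were 0.31 (95% interval -0.09 to 0.70, limma adjusted p = 0.671) and -0.53 (-1.20 to 0.14, limma adjusted p = 0.268) at the first 2 time points and -0.28 (SE 0.08) at the last. Without replicate 2 of p38-MAPKi at 7 h the value there was -0.94, and without replicate 1 it was -0.12.

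Ulk1, the kinase at the start of the pathway, was at 53.3 and 63.4 RPKM in control and 73.0 and 50.7 after p38-MAPKi at 4 h. It was at 55.5 and 72.0 against 46.8 and 54.4 at 7 h, and at 66.0 and 64.7 against 71.2 and 66.3 at 10 h. The inhibited libraries were below control at 7 h and above it at 10 h, in each case by a margin under 2 RPKM. Its log2 fold changes were 0.07 (95% interval -0.33 to 0.46, limma adjusted p = 0.939), -0.33 (-0.76 to 0.11, limma adjusted p = 0.291) and, at 10 h, 0.07 (SE 0.07). Wipi1, whose product binds phosphatidylinositol 3-phosphate, was between 0.942 and 2.32 RPKM on 71 to 225 reads. Its groups overlapped at all 3 time points. The 95% intervals on the log2 scale were -0.39 to 1.25 at 4 h and -1.03 to 0.90 at 7 h. Changes of Wipi1 within these intervals are not excluded.

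**Figure D4:**
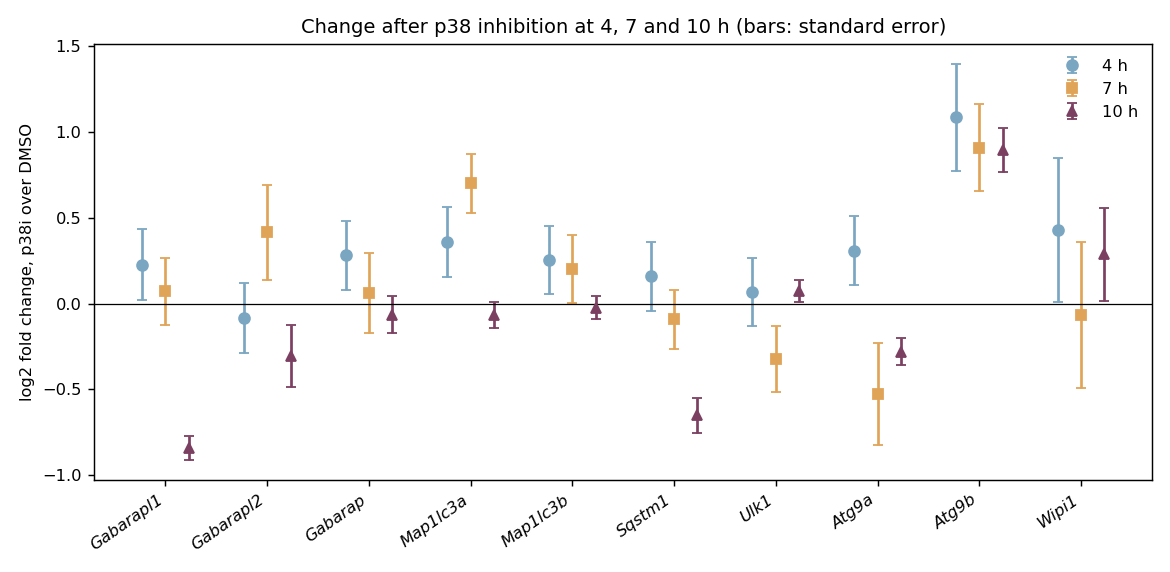
Log2 fold change of p38i over DMSO for each of the 10 genes at 4 h (circles), 7 h (squares) and 10 h (triangles), each from 2 against 2 libraries, with bars of 1 standard error. Gabarapl1 (-0.84) and Sqstm1 (-0.65) are the lowest points at 10 h, and the points of Atg9b lie between 0.89 and 1.09.

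Counted together, limma called 0 of the 10 genes at 4 h, beside 0.909% of all tested genes, and 0 at 7 h, beside 2.13%. At an unadjusted p under 0.05 there were 1 (Atg9b) and 2 (Map1lc3a and Atg9b), beside 9.42% and 28.4% of all genes. Voom on recovered reads called 0 and 2, beside 34 of 10781 and 1727 of 10940 genes. The common effect of these time points was called for 1 gene, Atg9b, beside 3.09% of all genes. The difference of the effect between 4 h and 7 h was called for 0 genes in limma, beside 0.00884%, and for 0 in voom. At an unadjusted p under 0.05 in limma there was 1 (Atg9a, -0.84, adjusted p = 0.661), beside 6.8% of all genes. At the opposite end Gabarapl2 had a difference of 0.50 (adjusted p = 0.676).

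Libraries did not overlap between p38-MAPKi and control for 5 of the 10 genes at 4 h, all higher, beside 40.4% of all genes, of which 2885 were higher and 1472 lower. They did not overlap for 3 genes at 7 h (Map1lc3a and Atg9b higher, Ulk1 lower), beside 61.7%, and for 5 genes at 10 h (Ulk1 and Atg9b higher, Gabarapl1, Sqstm1 and Atg9a lower), beside 52.2%. The count at 4 h lay near the share of all genes and that at 7 h below it. The median log2 fold change of the 10 genes was 0.27, 0.07 and -0.07 at the successive time points, against 0.07, -0.14 and -0.02 over all tested genes.

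Among 5830 genes with at least 5 RPKM in every library, the profile of Gabarapl1 over the 12 libraries was most like those of Srxn1 (Pearson r = 0.933), Leo1 (0.926), Hgs (0.891), Hsp90b1 (0.879) and Ctnnbl1 (0.879). Sqstm1 was close behind with r = 0.850, and 10 genes had a higher r. Atg9a had 0.575, Map1lc3b 0.437, Map1lc3a 0.386, Gabarap 0.375, Gabarapl2 0.124 and Ulk1 -0.03. All 5 of the most similar genes were lower in both p38-MAPKi than in both control libraries at 10 h, from -0.22 for Leo1 to -0.94 for Srxn1 on the log2 scale. These profiles share their libraries and the 10 h difference by which Gabarapl1 was picked, so r is given as a description only.

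A further 75 autophagy genes were read by role, of which 72 had enough signal to test. Limma called 0 of them at 4 h, with 3 of 72 at an unadjusted p under 0.05 beside 1016 of 10781 genes in all, and 0 in voom. At 7 h it called 2 of 72, both lower, beside 2.13% of all genes, and 22 of 72 had an unadjusted p under 0.05, beside 28.4% of all genes, so neither count stood far from the background. These were Atg2a, a lipid transfer protein that feeds the growing membrane (44.2 and 53.5 RPKM in control, 21.5 and 28.3 after p38-MAPKi, log2 fold change -0.98, adjusted p = 0.0479), and Atg16l2, a relative of the ATG8 conjugation scaffold ATG16L1 (11.6 and 9.35 against 5.17 and 4.41 RPKM, -1.13, adjusted p = 0.0461). Neither passed with the length trend removed, when they had -0.72 and -0.84. That setting called 1 of 10940 genes at 7 h, against 233 as deposited, so loss of the call is not particular to them. Atg16l2 also fell in the common effect of 4 h and 7 h, by 0.83 on the log2 scale (adjusted p = 0.0362), a call lost with the length trend removed. At 10 h limma called 1 of 72, beside 0.803% of all genes. This was Tmem41b, a scramblase of the endoplasmic reticulum needed for autophagosome formation, which was at 113 and 114 RPKM in control and 82.8 and 85.1 after p38-MAPKi (-0.43, adjusted p = 0.0403).

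The median log2 fold change at 10 h was -0.02 over all genes. By list it was -0.07 for the other 4 initiation complex genes, with Atg101 at -0.07 and Atg13 at -0.07, and -0.04 for 8 genes of the class III PI3-kinase complexes, with Becn1 at 0.00 and Atg14 at -0.08. Lipid supply genes, the list of Atg2a and Tmem41b, had -0.18, and conjugation genes -0.09. The 12 tested cargo receptors other than Sqstm1 had a median of -0.16, and all 12 values were below 0, beside 54.3% of all genes. None of the 12 was called, and 5 had a p under 0.05 before adjustment, beside 19.8% of all genes. This lean was not confined to cargo receptors, since 51 of the 72 tested genes were below 0. By list these were 4 of 4 initiation, 5 of 8 PI3-kinase, 6 of 7 lipid supply and 8 of 10 conjugation genes. For fusion genes and regulators they were 7 of 12 and 9 of 19. Of the lipid supply genes, 4 of 7 had an unadjusted p under 0.05. Tex264, a receptor for the endoplasmic reticulum, had -0.33 (adjusted p = 0.158) and Tollip -0.13 (adjusted p = 0.379). Fusion genes had -0.06, with the GTPase Rab7 at -0.20 and the SNARE Vamp8 at -0.16. The regulators had 0.02, with Tfeb, the transcription factor that drives lysosome and autophagy genes, at 0.04 and Sesn2, an inhibitor of mTORC1 signalling, at 0.23 (adjusted p = 0.138).

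**Figure D5:**
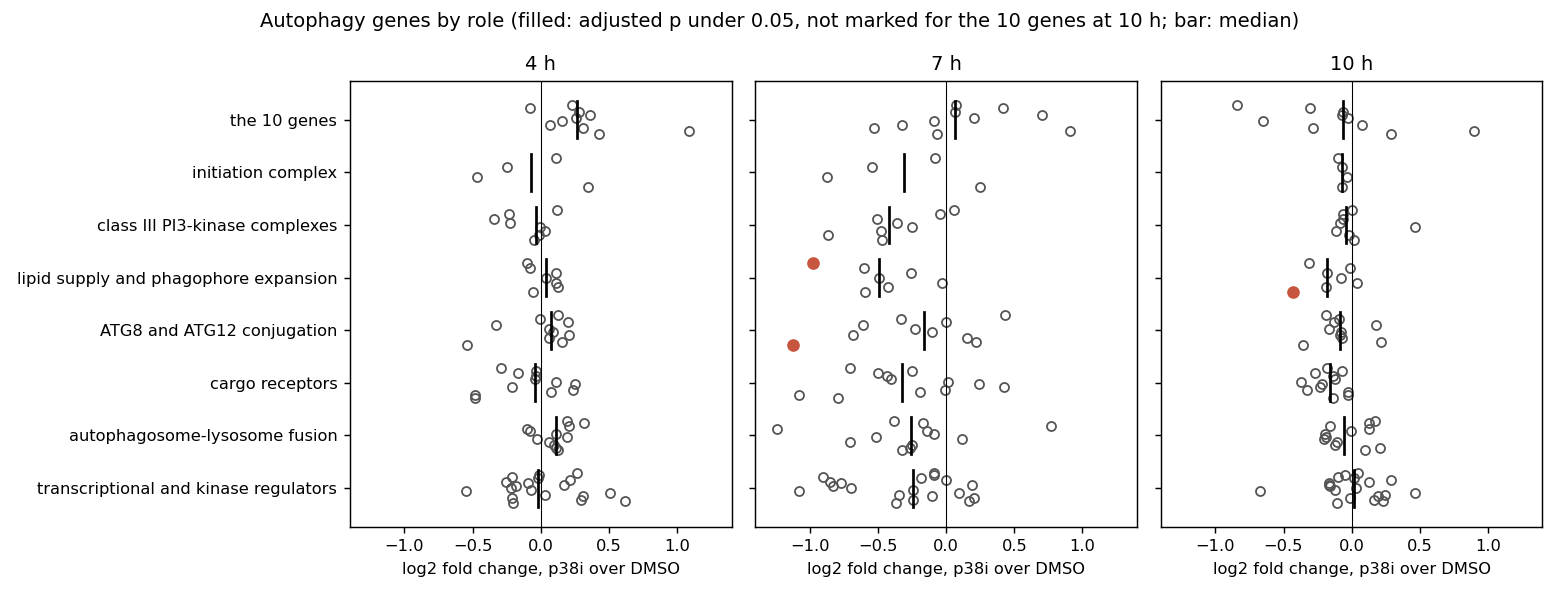
Log2 fold change of p38i over DMSO at 4, 7 and 10 h for the 10 genes and for 7 lists of other autophagy genes, with 1 circle for each tested gene, filled where the limma adjusted p was under 0.05, and a bar at the median. The filled circles are Atg2a (-0.98) and Atg16l2 (-1.13) at 7 h and Tmem41b (-0.43) at 10 h among the lists, and no call is marked for the 10 genes at 10 h, where they were chosen.

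Markers of cell types moved with some of these values. At 10 h, where Gabarapl1 and Sqstm1 were low, the 8 epiblast markers summed to 709 to 716 RPKM in control and 636 to 667 RPKM after p38-MAPKi, while the 10 trophectoderm markers (2446 to 2695 against 2276 to 2573 RPKM) and the 10 primitive endoderm markers (201 to 210 against 204 to 216 RPKM) overlapped. Pou5f1, at 350 to 503 RPKM over all libraries, gave the largest part of the epiblast sum. The part of these markers in the result was not tested. At 7 h the primitive endoderm markers summed to 199 to 217 RPKM in control and 137 to 142 RPKM after p38-MAPKi, and their part in the values of Map1lc3a and Atg9b was not tested. Of 4 blood cell markers, Ptprc and Hbb-bs had no read, and Cd68 was above 1 RPKM in all libraries with at most 7.43 RPKM. The blood list summed to 6.42 to 6.60 RPKM in the 10 h controls and 3.98 to 4.14 after p38-MAPKi. This sum rests almost on Cd68 alone, with 1454 reads over all libraries against 58 for Hba-a1, so it does not measure blood cells. The part of this difference was not tested either.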

How the data were processed

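Per the labels and the methods, the authors prepared directional poly(A) libraries, trimmed reads with Trim Galore 0.4.1, mapped them to GRCm38 with HISAT2 2.0.5 and counted them per gene in SeqMonk, and they tested them with DESeq2 there. The authors deposited log2 RPKM for 34245 genes, with replicates apart. The strand option and the treatment of multi-mapping reads are not given in the sources used here. A gene without a read is stored as 0.9 of a read, which gave each library's total, and whole reads were recovered for 34244 genes. These serve for depth and for voom only.

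The log2 values were used as deposited, with no pseudocount. Each comparison was fitted with limma 3.58.1 (lmFit, eBayes with the trend) in R 4.3.3 over genes that reached 1 RPKM in 2 or more of its libraries, with Benjamini-Hochberg adjusted p-values over all of them and a threshold of 0.05. At 4 h limma gave every gene the variance of the trend. On simulated data with known changes for 10 h (10840 genes), 98% of 2-fold changes were called and 4.85% of calls were false. For 4 h (10709 genes) these shares were 70.0% and 1.78%, and for 7 h (10762 genes) 73.0% and 3.43%. Every simulated gene had normal noise with the spread usual at its level, and no length trend was put in. Real genes can differ from this setting, so the shares may be better than in the data. Python 3.11.15 served for the rest.

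The 10 genes, the 7 lists of other autophagy genes and the marker lists were chosen with earlier results of these data known. All 10 genes are named. From each list, called genes whose libraries do not overlap are named, or otherwise the 2 with the highest mean level, and for likeness the 5 genes with the highest r. The alternatives tried were removal of the length trend (loess, span 0.5), voom, quantile normalization, centring on the median, a limit of 10 RPKM or no limit, a pseudocount of 0.1 or 5, eBayes without its trend, the replicate block, 12 libraries in 1 fit, and each library left out.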

Additional observations from a re-analysis of the deposited data

Results flagged for a closer look

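For 3 of the 10 genes every p38-MAPKi library lay on one side of both controls at one time point and on the other side at another. The same held for 19.4% of the 10460 genes tested at all 3 time points. Sqstm1 had a log2 fold change of 0.16 at 4 h and of -0.65 at 10 h. Atg9a, the widely expressed ATG9 gene, had 0.31 at 4 h and -0.28 at 10 h. Ulk1 had -0.33 at 7 h and 0.0734 at 10 h. The difference between the time points was not tested for any of these genes, because the 10 h contrast was used in choosing them.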

How the results depend on the processing

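With 2 libraries per group the counts of calls moved with the processing, and the cause was not tested. Of the 10 genes, 1 was called at 4 h with a pseudocount of 5, beside 107 of 10781 genes in all. At 7 h 1 was called without the filter, at 10 RPKM or with a pseudocount of 5. These settings called 1236 of 34245, 947 of 5081 and 647 of 10940 genes in all. At that time 2 were called by voom or with 12 libraries in 1 fit, beside 1727 and 2586 of 10940 genes. The replicate block called 3 (Atg9a, Atg9b and Map1lc3a), beside 2023 of 10940. Calls of the 10 genes at 10 h were not counted, since that contrast was used to choose them. In the common effect 0 were called without the trend, without the filter or with the replicate block. With a pseudocount of 5 or by voom 2 were called, beside 486 and 1028 of 11311 genes. Leaving out 1 library, which leaves a single library in its group, also moved these counts. Of the other autophagy genes at 7 h, 0 were called without the trend, after median centring, after quantile normalization or with the length trend removed. There were 4 calls without the filter, 6 at 10 RPKM, 16 by voom, 13 with the replicate block and 19 with 12 libraries in 1 fit. For the settings with calls, the counts over all genes are those given above. At 10 h 0 were called without the trend, without the filter or with 12 libraries, 2 at 10 RPKM, 5 by voom and 3 with the replicate block. Over all genes 10 RPKM gave 166 calls of 5151, voom 523 of 10959 and the block 410 of 10959. In their common effect 0 were called without the trend, without the filter or with the length trend removed. Median centring gave 3, and quantile normalization or voom 4. Over all 11311 genes these settings called 583, 694 and 1028. Leaving out 1 library gave 0 to 1, 0 to 21 (without replicate 2 of p38-MAPKi at 7 h), 0 to 1 and 0 to 15 (without replicate 1 of p38-MAPKi at 4 h) of them at 4, 7 and 10 h and in the common effect. In the settings named in brackets the count over all genes rose as well, so these highest counts are not particular to autophagy genes. Such fits leave a single library in a group, so their counts are a description only. The labels do not say that a replicate number names a shared batch. Deviations of same-numbered libraries correlated at -0.01, 0.26 and 0.09 at the successive time points. Whether such libraries shared a batch was not tested, so the block is given only as an alternative fit. At 10 h the log2 fold change of Gabarapl1 ran from -0.85 to -0.68 over 15 settings and that of Sqstm1 from -0.80 to -0.50. Among the tested values, signs turned only in those that had not passed. At 4 h quantile normalization gave -0.00827 for Sqstm1 and -0.0615 for Ulk1, and leaving out 1 library gave -0.33 to 0.17 for Gabarapl2, -0.20 to 0.33 for Ulk1, and -0.022 to 0.88 for Wipi1. At 7 h removal of the length trend gave -0.15 for Gabarapl1 and -0.19 for Gabarap, median centring gave 0.10 for Sqstm1 and 0.13 for Wipi1, quantile normalization gave 0.0776 for Wipi1, and leaving out 1 library gave -0.14 to 0.28 for Gabarapl1, -0.20 to 0.32 for Gabarap, and -0.31 to 0.17 for Wipi1. The common effect of Gabarapl1 was -0.0127 with the length trend removed, and the change of Sqstm1 over time in controls was -0.0321 after median centring. Over the settings the common effect also changed sign for Gabarapl2, Gabarap, Sqstm1, Ulk1, Atg9a and Wipi1. The control change did so for Gabarapl2, Gabarap, Atg9a and Wipi1. For Gabarapl1, Gabarap, Map1lc3b and Atg9b the difference between 4 h and 7 h did so.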
